A study of Arabidopsis thaliana with 12 samples.

Results

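*GH9B8*, *GH9B11*, *GH9B12* and *GH9B16* are 4 genes of glycoside hydrolase family 9, subclass B, in *Arabidopsis thaliana*. They were chosen because each had an array probe that the platform annotation assigns to that gene alone, and they are 4 of the 691 genes so covered. They were also selected on their measured intensities in stn8 and WT, which were known when they were picked, so their differences between the groups are described here with errors and without a test. The arrays held total RNA of the *stn8* mutant (6 arrays) and of the wild type, WT, ecotype Columbia 0 (6 arrays), and the question was how transcript levels of the mutant compare with those of the WT. STN8, the kinase after which the mutant is named, acts in the thylakoid membrane of chloroplasts on core proteins of photosystem II. Sample titles gave the groups, because the source field names the WT ecotype for all 12 samples. The sources used here name neither the *stn8* allele nor the tissue, plant age or growth conditions. The labels do not tie the arrays of a group to separate plants, so errors and p-values cover the spread between arrays, some or all of which may be technical.

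Family 9 of the plant glycoside hydrolases comprises endo-1,4-beta-glucanases, which cut the internal bonds of unbranched beta-glucan chains such as those of amorphous cellulose. Plant members fall into subclass A, anchored in a membrane and including KORRIGAN, an enzyme that cellulose synthesis needs, subclass B, secreted into the wall as a catalytic domain alone, and subclass C, secreted with a carbohydrate-binding domain at the end of the protein. Secreted members are known for wall loosening and remodelling during growth, organ shedding and fruit softening. *GH9B11* (AT2G44560) and *GH9B12* (AT2G44570) lie side by side in the genome, next to *GH9B9* and *GH9B10*. *GH9B16* (AT4G38990) is followed by *GH9B17* and *GH9B18*. *GH9B8* (AT2G32990) stands apart from both runs of neighbours. Of 25 genes listed for the family, these 4 had a probe of their own, 8 others appeared only on probes that the annotation assigns to several genes, and 13 appeared on none.

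The values were deposited intensities on a linear scale whose unit was not given. The median intensity of an array lay between 0.330 and 0.349 in stn8 and between 0.297 and 0.369 in WT, and between 220 and 254 of 3437 probes were listed at 0 on a stn8 array, against 173 to 190 on a WT array. Across the 3079 probes above 0 on all arrays, the correlation between normalized arrays was 0.972 to 0.986 within stn8 and 0.905 to 0.969 within WT, and 0.676 to 0.725 between the groups. WT arrays 5 and 6 were less like the rest of their group, with correlations of 0.905 to 0.921 to WT arrays 1 to 4, which had 0.952 to 0.969 among themselves. No gene on 9 lists of tissue markers (leaf mesophyll, epidermis, guard cells, root, xylem, phloem, flower, pollen and seed) had a probe of its own, so the tissue was not checked. Fewer cells of a type and less RNA per cell cannot be told apart in such samples.

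*GH9B11*, *GH9B12* and *GH9B16* were lower in stn8 than in WT, with groups that did not overlap, and *GH9B8* overlapped between the groups. By the ratio of mean deposited intensities, *GH9B12* was 3.66-fold, *GH9B11* 2.19-fold and *GH9B16* 1.62-fold lower in stn8, while *GH9B8* was 1.13-fold higher. The 3 non-overlapping members stand beside 27.0% of all probes whose deposited intensities were lower in stn8 without overlap (27.5% after normalization, where the same 3 members did not overlap) and 55.6% without overlap in either direction. Most probes on these arrays differed between the groups. By limma, at an adjusted p under 0.05, 70.4% of all probes were called, 34.7% higher and 35.8% lower in stn8. The shares that follow use the log2 difference fitted after quantile normalization, not the ratio of mean deposited intensities. An absolute difference at least as large as that of *GH9B12*, at -1.24, was found for 30.7% of the 3437 probes. The corresponding share was 38.1% for *GH9B11*, 57.0% for *GH9B16* and 65.3% for *GH9B8*.

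*GH9B11* had intensities from 0.131 to 0.156 in stn8, with a median of 0.150, against 0.302 to 0.347 in WT, with a median of 0.322. It was the steadiest of the 4 within groups, and the highest stn8 array stood far below the lowest WT array. Its mean was 0.147 ± 0.00947 in stn8 and 0.322 ± 0.0175 in WT (SD, n = 6 each), a coefficient of variation of 6.44% and 5.42%. After log2 conversion and quantile normalization the fitted difference, stn8 minus WT, was -1.04 ± 0.07 (SE). On the stn8 arrays 23.5% to 26.7% of probes had an intensity at or below that of *GH9B11*, against 43.7% to 54.4% on the WT arrays. These ranks need no scaling between arrays, and they did not overlap between the groups.

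*GH9B12*, the next gene along, had intensities from 0.0279 to 0.0531 in stn8, with a median of 0.0351, and from 0.122 to 0.174 in WT, with a median of 0.133. All 6 stn8 values were above 0 and all lay below the lowest WT value. The mean was 0.0382 ± 0.0100 in stn8 and 0.140 ± 0.0208 in WT (SD, n = 6 each). The fitted log2 difference was -1.24 ± 0.15 (SE) after quantile normalization and -1.90 ± 0.17 without normalization between arrays. It was -0.69 ± 0.09 when a pseudocount of 0.0584, larger than every stn8 value of this probe, was added before the normalization. The direction was the same in all 3, while the size was not. The share of probes at or below *GH9B12* was 9.31% to 12.6% on stn8 arrays and 15.8% to 26.5% on WT arrays.

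*GH9B16* had intensities from 0.165 to 0.221 in stn8, with a median of 0.175, and from 0.226 to 0.383 in WT, with a median of 0.284. The groups only just missed each other, since the highest stn8 array, array 6 at 0.221, was close to the lowest WT array, array 6 at 0.226. The mean was 0.183 ± 0.0215 in stn8 and 0.296 ± 0.0733 in WT (SD, n = 6 each), and the fitted log2 difference was -0.62 ± 0.12 (SE). Its WT values fell into a higher set of 3, namely arrays 1, 3 and 4 at 0.331, 0.370 and 0.383, and a lower set of 3, namely arrays 2, 5 and 6 at 0.237, 0.231 and 0.226. Without WT arrays 5 and 6, a choice made after the data were seen, the fitted difference was -0.75 ± 0.12. The same choice gave -0.96 ± 0.04 for *GH9B11*, -1.28 ± 0.19 for *GH9B12* and 0.34 ± 0.15 for *GH9B8*. The share of probes at or below *GH9B16* was 28.0% to 35.8% on stn8 arrays and 37.7% to 51.8% on WT arrays.

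*GH9B8* had intensities from 0.134 to 0.175 in stn8, with a median of 0.160, and from 0.0946 to 0.193 in WT, with a median of 0.129. The stn8 range lay wholly inside the WT range, and the highest and the lowest of all 12 values were both from WT. Its mean was 0.156 ± 0.0180 in stn8 and 0.138 ± 0.0409 in WT (SD, n = 6 each), with a coefficient of variation of 11.6% in stn8 and 29.7% in WT. The fitted log2 difference was 0.49 ± 0.15 (SE) after quantile normalization, 0.22 ± 0.18 without normalization and 0.17 ± 0.14 with median centring. The share of probes at or below *GH9B8* was 23.0% to 29.7% on stn8 arrays and 14.1% to 24.6% on WT arrays, so the ranks overlapped too. *GH9B8* and *GH9B12* belonged to the dimmest 33.3% of probes by mean normalized value. Among those dim probes the quantile normalization shifted the difference of a probe upwards by a median of 0.27 on the log2 scale relative to no normalization, and among the other probes the median shift was -0.13.

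**Figure D1:**
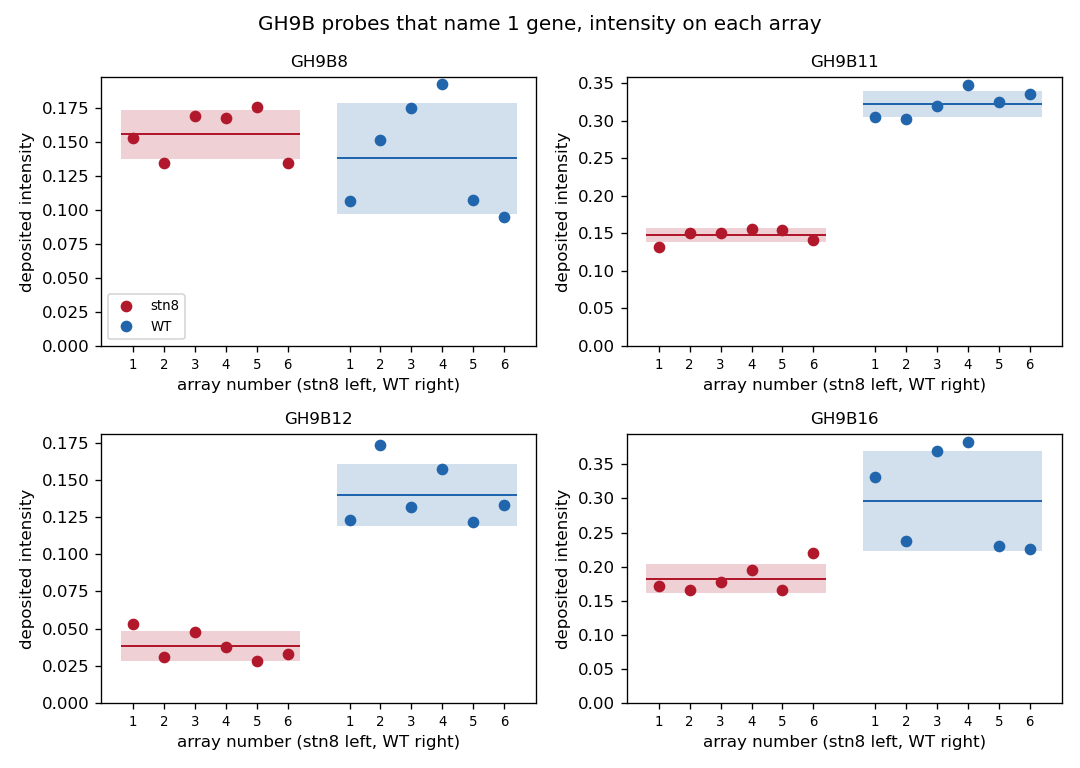
Deposited intensity (linear, unit not given) of the 4 GH9B probes on each of the 12 arrays, stn8 on the left and WT on the right of each panel; points are arrays, lines are group means and bands are 1 SD. GH9B11 and GH9B12 are clearly separated, GH9B16 is separated narrowly (0.221 against 0.226 at the closest arrays), and the GH9B8 values of stn8 lie inside the WT range.

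The members took different orders over the arrays of a group. Over all 3079 probes above 0, each of the 12 arrays correlated best, within its group, with its neighbour in number (1 with 2, 3 with 4, 5 with 6). These correlations were 0.981 to 0.986 in stn8 and 0.963 to 0.969 in WT. The next best array was at 0.975 to 0.979 in stn8 and 0.920 to 0.963 in WT. The margin was small except for WT arrays 5 and 6, at 0.963 with each other and 0.921 and 0.920 with their next best. The means of these neighbours were therefore compared as well, although a single probe need not follow them, as *GH9B16* had 0.331 on WT array 1 and 0.237 on WT array 2. In stn8 the means of *GH9B16* were 0.169 for arrays 1 and 2, 0.186 for arrays 3 and 4 and 0.193 for arrays 5 and 6, against 0.284, 0.376 and 0.229 in WT. Those of *GH9B8* were 0.144, 0.168 and 0.155 in stn8, against 0.129, 0.184 and 0.101 in WT. Both probes were thus highest on WT arrays 3 and 4 and lowest on WT arrays 5 and 6. *GH9B11* did not share this order, with means of 0.141, 0.153 and 0.148 in stn8 and of 0.303, 0.333 and 0.330 in WT. Nor did *GH9B12*, with 0.0419, 0.0424 and 0.0304 in stn8 and 0.148, 0.144 and 0.127 in WT. For *GH9B11*, *GH9B12* and *GH9B16* every such mean was lower in stn8 than every mean in WT, and for *GH9B8* the means overlapped. All these means are of deposited intensities, not scaled between arrays. The median of all probes was itself highest on WT arrays 3 and 4 (0.369 and 0.368) and lowest on WT arrays 5 and 6 (0.297 and 0.301). The part of this in the orders was not tested.

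**Figure D2:**
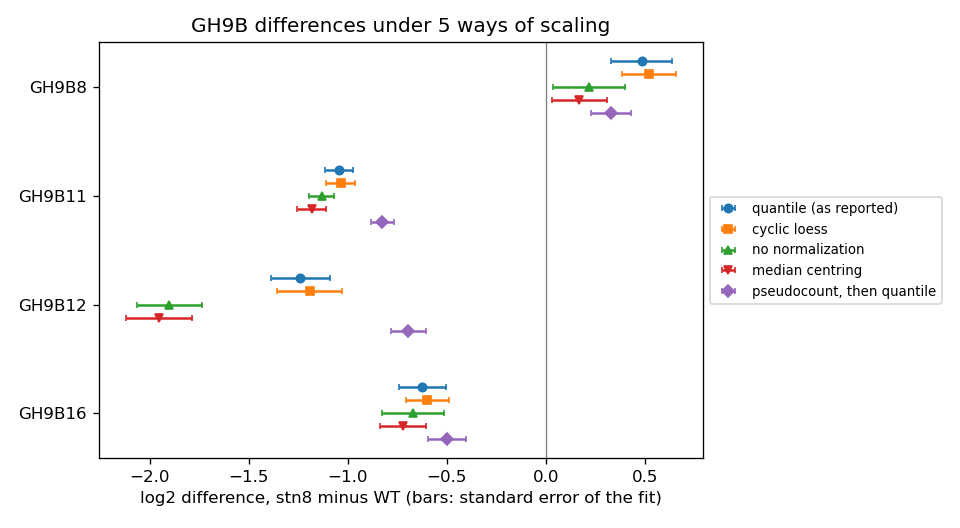
Log2 difference (stn8 minus WT, horizontal axis) of each GH9B probe under 5 ways of scaling the arrays, with the standard error of each fit. The sign is the same under all 5 for each gene, while GH9B12 ranges from -0.69 with the pseudocount to -1.95 with median centring and GH9B8 lies between 0.17 with median centring and 0.52 with cyclic loess.

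Nearby probes were looked up by probe number, since the layout of the array was not given. Within 4 numbers of *GH9B11* the brightest probe averaged 0.566 in stn8 and 0.532 in WT. For *GH9B12* the brightest was 0.848 in stn8 and 1.43 in WT, and for *GH9B8* 1.34 in stn8 and 1.02 in WT. For *GH9B16* it was 1.59 in stn8 and 7.64 in WT. Within that distance 4 probes had values for *GH9B8* and 6 for each other member. The part of these nearby probes in the differences of the members was not tested. The *GH9B11* and *GH9B12* probes were 12 numbers apart.

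**Figure D3:**
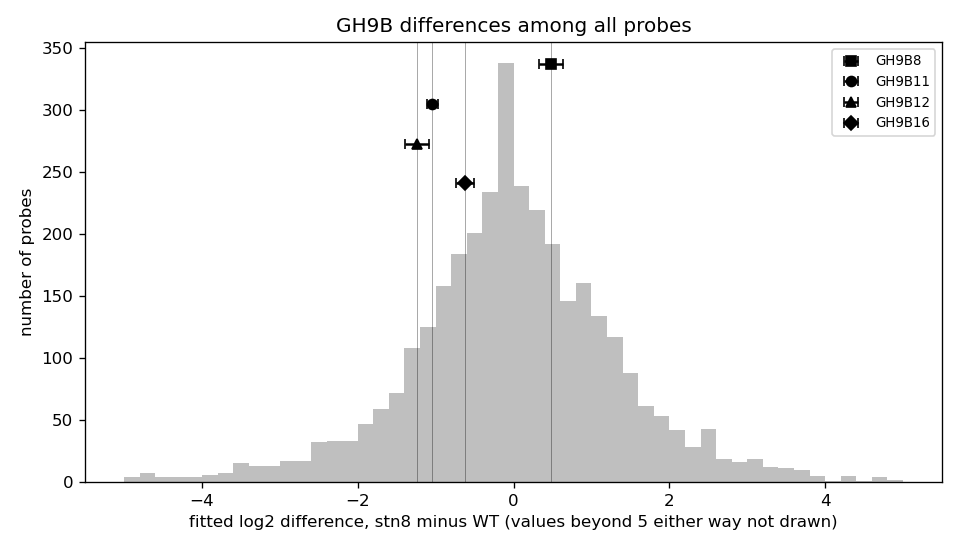
Number of probes (vertical axis) by fitted log2 difference, stn8 minus WT (horizontal axis), for all 3437 probes except 73 beyond 5 in either direction; the 4 symbols with standard error bars mark the GH9B probes at heights without meaning. All 4 lie within the body of the distribution, GH9B12 furthest to the left at -1.24 and GH9B8 on the right of 0 at 0.49.

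A further 6 probes were assigned by the annotation to several genes, all of the GH9 family. They were added after the annotation had been seen. Their signal cannot be given to any one gene, and the sources used here do not say how well a probe separates near-identical copies. Of the 6, 2 were called higher in stn8, 2 lower and 2 were not called, with a median log2 difference of -0.27, beside a background of 34.7% higher and 35.8% lower over all probes. The median over the 4 probes with 1 gene was -0.83, with 1 of the 4 above 0. Those 4 were selected on their intensities, so their median does not describe the family. After normalization the median over all 3437 probes was below 0.01 in size.

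The 2 probes listing *GH9B14* and *GH9B15* were both higher in stn8. Probe 2884 had intensities from 1.11 to 1.36 in stn8, with a median of 1.32, against 0.213 to 0.486 in WT, with a median of 0.359. Probe 2019 had 0.327 to 0.667 in stn8, with a median of 0.550, against 0.0682 to 0.231 in WT, with a median of 0.214. Neither overlapped between the groups, and on both probes WT arrays 5 and 6 were the lowest of the 12. By the ratio of means they were 3.72-fold and 3.11-fold higher in stn8. The fitted log2 difference of probe 2884 was 1.83 ± 0.19 (SE, limma adjusted p = 4.98e-06), and that of probe 2019 was 1.83 ± 0.34 (SE, limma adjusted p = 0.000553). Both remained called without WT arrays 5 and 6. Within 4 probe numbers the brightest probe averaged 2.24 in stn8 and 13.1 in WT for probe 2884, and 9.23 in stn8 and 3.28 in WT for probe 2019, and their part in the result was not tested.

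The probes that list *GH9B17* and *GH9B18* were set beside the probe of *GH9B16* alone. Probe 3160, assigned to *GH9B16*, *GH9B17* and *GH9B18* together, had 0.125 to 0.184 in stn8, with a median of 0.145, against 0.295 to 0.464 in WT, with a median of 0.427. It was 2.69-fold lower in stn8 by the ratio of means, with a log2 difference of -1.37 ± 0.15 (SE, limma adjusted p = 7.26e-06). The probe of *GH9B16* alone had -0.62, and the difference between the 2 probes was not tested. In WT they also parted on arrays 5 and 6, where the shared probe was at 0.435 and 0.440, near its highest value, and the probe of *GH9B16* alone was at its lowest. A probe assigned to *GH9B17*, *GH9B18* and a gene outside the family was listed at 0 on all 6 stn8 arrays and on 5 of the 6 WT arrays.

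In the run of neighbours that holds *GH9B11* and *GH9B12*, probe 1466 lists *GH9B9*, *GH9B10*, *GH9B11* and *GH9B12* together. It had 0.0481 to 0.140 in stn8, with a median of 0.114, against 0.117 to 0.196 in WT, with a median of 0.143, and the groups overlapped. Its log2 difference was -0.34 ± 0.28 (SE, limma adjusted p = 0.300), which did not pass. It passed without normalization, at -0.67 (adjusted p = 0.0469), and with median centring, at -0.72 (adjusted p = 0.0379), and over its 20 alternatives the adjusted p ranged from 0.0379 to 0.611. The brightest probe within 4 numbers averaged 7.22 in stn8 and 1.59 in WT, and its part was not tested. Probe 1478, which lists *GH9B9* and *GH9B10*, was at 0 on all 6 stn8 arrays and between 0.0814 and 0.105 on the WT arrays, with a median of 0.0942. It was called lower in stn8 (limma adjusted p = 1.15e-15, and 2.81e-17 to 3.62e-07 over its 20 alternatives). All 6 stn8 values entered the fit at the floor given to zeros, so that the size of this p depends on the floor and the stn8 group has no measured spread, and no fold is given since that group is at 0. The probe next to it in number, that of AT3G12000, averaged 39.8 in stn8 and 1.38 in WT, and its part in the result was not tested.

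The probe listing the subclass C genes *GH9C2* and *GH9C3* had 0.109 to 0.132 in stn8, with a median of 0.121, against 0.133 to 0.230 in WT, with a median of 0.156. The deposited values did not overlap, although only narrowly, with 0.132 and 0.133 at the closest arrays. After quantile normalization the log2 difference was -0.19 ± 0.22 (SE, limma adjusted p = 0.461), which did not pass. It passed without normalization at -0.47 (adjusted p = 0.0102) and with median centring at -0.52 (adjusted p = 0.0229), and the adjusted p ranged from 0.0102 to 0.841 over its 20 alternatives. Without WT arrays 5 and 6, its highest arrays, the log2 difference was 0.14, of the opposite sign.

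**Figure D4:**
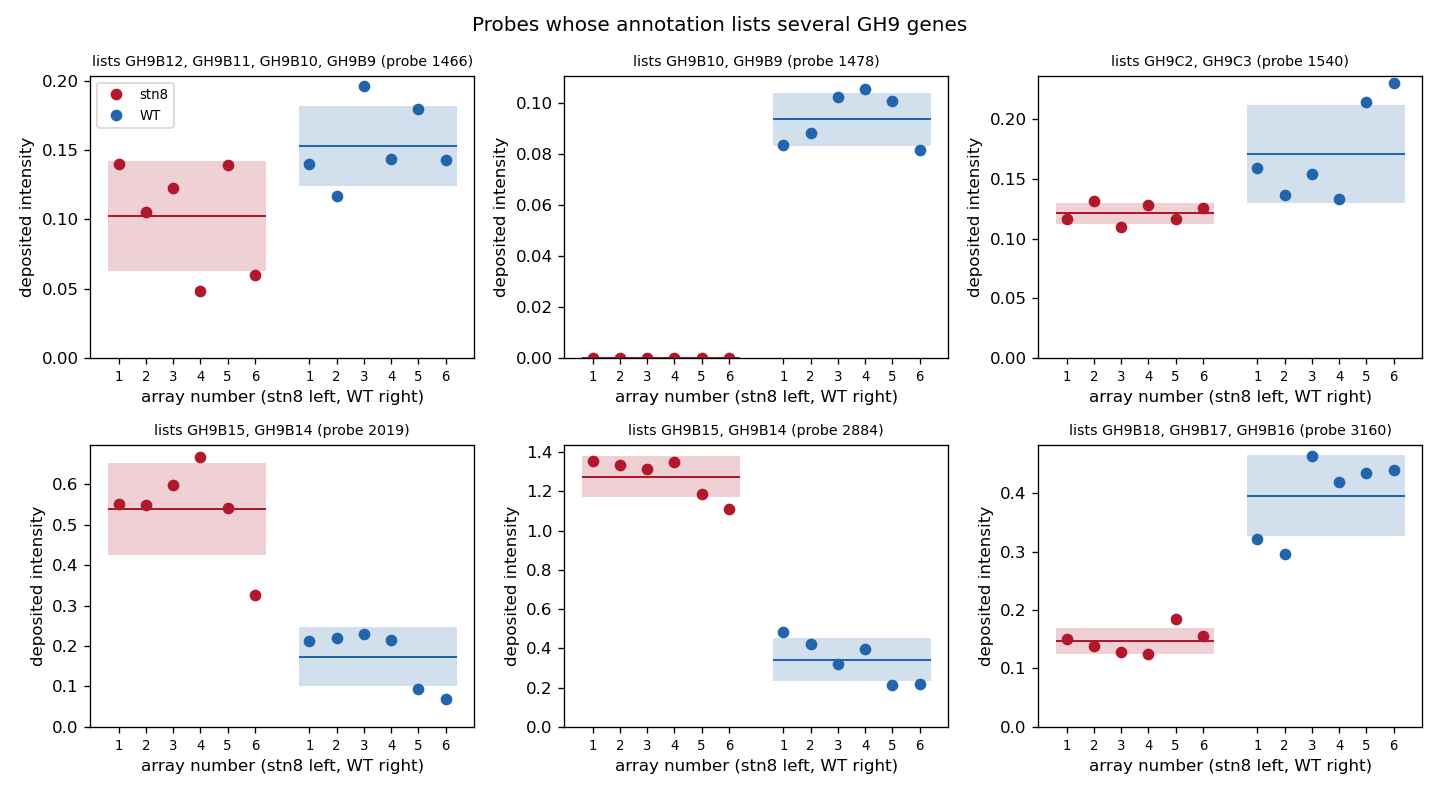
Deposited intensity on each array of the 6 probes whose annotation lists several GH9 genes, stn8 on the left and WT on the right of each panel; points are arrays, lines are group means and bands are 1 SD. Both probes listing GH9B14 and GH9B15 are higher on all 6 stn8 arrays, while probes 1478, 1540 and 3160 are lower on all 6 and probe 1466 overlaps.

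Other genes of the cell wall were scarcely covered. Of 8 further lists (cellulose synthesis, hemicellulose synthesis, xyloglucan endotransglucosylases, expansins, pectin modification, other wall glycosidases, lignin synthesis and wall structural proteins), 1 had a gene with its own probe. This was *CSLA01*, of a subfamily of glycosyltransferases that make the mannan backbone, at 2.53 to 2.96 in stn8, with a median of 2.70, and 0.526 to 0.802 in WT, with a median of 0.719. It was 3.99-fold higher in stn8 by the ratio of means, with a log2 difference of 1.78 ± 0.13 (SE, limma adjusted p = 1.78e-07) and was the 1 list gene that could be tested. KORRIGAN and the cellulose synthases had no probe of their own.

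A set of 3 more probes listed several genes of 1 wall family. The probe listing the expansin-like genes *EXLA2* and *EXLB1* averaged 2.01 ± 0.0679 in stn8 and 0.281 ± 0.0197 in WT (SD, n = 6 each), 7.14-fold higher in stn8 (log2 difference 2.70 ± 0.05, limma adjusted p = 1.31e-12). A probe listing 3 genes of the CSLC subfamily, which makes the xyloglucan backbone, averaged 0.690 ± 0.0767 in stn8 and 1.67 ± 0.438 in WT (SD, n = 6 each), 2.42-fold lower in stn8 (log2 difference -1.46 ± 0.16, limma adjusted p = 6.65e-06). The other CSLC probe, which lists 4 genes, averaged 0.397 ± 0.0213 in stn8 and 0.542 ± 0.214 in WT (SD, n = 6 each) and was not called (log2 difference -0.46 ± 0.25, limma adjusted p = 0.118). It was called lower without WT array 6 (-0.67, adjusted p = 0.00441) and without WT arrays 5 and 6 (-0.84, adjusted p = 1.39e-05), within a range of adjusted p from 1.39e-05 to 0.317 over its 21 alternatives. Within 4 probe numbers of it the brightest probe averaged 47.9 in stn8 and 3.64 in WT, and its part in the result was not tested.

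The genes most like each member were the 3 probes with 1 gene whose normalized log2 values correlated best with it over the 12 arrays, out of 615 that were above 0 on all arrays. Since the groups differ, this measure mainly follows the difference between them, and the correlation of the deviations from the group means is given as well. Neighbouring arrays of a group resemble each other most and may not be independent, so both are descriptions. For *GH9B11* they were AT4G25290, AT4G31470 and AT1G13990, at 0.99 each, with 0.76, 0.77 and 0.71 for the deviations. For *GH9B12* they were AT4G00170, *PSAN*, a subunit of photosystem I, and AT4G08630, at 0.94 each, with 0.45, 0.47 and 0.48. For *GH9B16* they were AT4G33760 at 0.93, *SECE1*, a subunit of a thylakoid protein translocase, at 0.91 and AT1G11470 at 0.90, with 0.73, 0.64 and 0.65. For *GH9B8* they were AT5G39980 at 0.89, AT4G31210 at 0.88 and *UGT74D1*, a glucosyltransferase, at 0.85, with 0.78, 0.79 and 0.79. No member was among the 3 most like another. *GH9B11* and *GH9B12* had 0.91 over the 12 arrays and 0.01 for the deviations. The deviations of *GH9B16* had -0.63 with *GH9B11* and -0.48 with *GH9B12*. Those of *GH9B8* had -0.53 with *GH9B11*, 0.10 with *GH9B12* and 0.18 with *GH9B16*.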

How the data were processed

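The authors deposited 1 table of processed array intensities on a linear scale, with no value below 0. The scale was read from the values, and the sources used here do not state the background correction or the scaling of the arrays. Of 3439 rows, 2 held no value, leaving 3437 probes. The platform annotation gives 1 gene for 692 probes (691 genes) and several for 869, and 690 of the 692 matched the TAIR10.1 gene table of RefSeq, used for names and neighbours only. Probe sequences and genome coordinates were not used here.

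A value of 0 was replaced by the lowest positive value on the same array, values were converted to log2 and, because array medians differed by 0.311 (limit 0.1), quantile normalized. Testing stn8 against WT used limma 3.58.1 in R 4.3.3 (lmFit, eBayes, two-sided). Benjamini-Hochberg adjustment was over all 3437 probes, with a threshold of 0.05. The fit was also run on simulated data with independent arrays, no zeros and few changed probes. That setting differs from these arrays, so it says nothing about the calls made here. Figures used matplotlib 3.10.9. The members, lists and tests were chosen with earlier results of these data known. All measured GH9 probes are named, and of each other list up to 4 called probes. Lists are described by counts and medians only. The number of arrays limits the precision.

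Deviations from the group means correlated between same-numbered stn8 and WT arrays, at 0.17 to 0.333 in all 6 pairs, against -0.284 to 0.286 for different numbers. The numbers come from the titles, which do not state their meaning. Arrays of the same number were treated as pairs in an alternative fit. The other alternatives were 3 other normalizations, a pseudocount, removal of dim probes, an intensity trend with robust variances, neighbouring arrays averaged, and arrays left out.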

Additional observations from a re-analysis of the deposited data

Results flagged for a closer look

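The 6 values of each group were searched for 1 array far from the other 5, over 28 groups that were not all 0, and 2 such arrays were found; chance flags about 1 in 20 groups. The first was stn8 array 6 on probe 2019, which lists *GH9B14* and *GH9B15*, at an intensity of 0.327 where the median of the group was 0.550, and it still lay above the highest WT value of 0.231. The second was WT array 6 on the probe listing *GH9B17*, *GH9B18* and a gene outside the family, at 0.00218 where the other 11 arrays were at 0. None of the 4 probes of *GH9B8*, *GH9B11*, *GH9B12* and *GH9B16* had such an array in either group.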

How the results depend on the processing

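The sign of the log2 difference was the same as reported for *GH9B8*, *GH9B11*, *GH9B12* and *GH9B16* under every alternative that gave a value. For *GH9B16* no alternative moved the difference by more than the spread between arrays (-0.75 to -0.50). The intensity trend with robust variances, the pairing by number and the averaged neighbours could change only the error of a difference. So could the filter on dim probes, for the members it kept. The same sign in those fits was therefore fixed in advance. With median centring *GH9B8* was at 0.17, *GH9B11* at -1.18 and *GH9B12* at -1.95. With the pseudocount *GH9B11* was at -0.83 and *GH9B12* at -0.69, and without normalization *GH9B12* was at -1.90; the cause was not tested. The dimmest probes, *GH9B8* and *GH9B12*, were removed by the filter on dim probes and have no value there. Leaving out each array in turn gave 0.40 to 0.58 for *GH9B8*, -1.10 to -1.01 for *GH9B11*, -1.34 to -1.17 for *GH9B12* and -0.68 to -0.57 for *GH9B16*. Over all alternatives 921 to 1249 probes were called higher and 920 to 1305 lower, against 1191 and 1230 as reported. The lowest counts, 921 and 920, came from the filter on dim probes. That fit tested fewer probes, so its counts cannot be set against the others and do not show a smaller share called. Among the other alternatives the lowest counts were 1005 higher and 1006 lower, with neighbouring arrays averaged. With the sample number as a replicate block, 1224 probes were called higher and 1253 lower, and the block changed no call of a wall probe named here. With neighbouring arrays averaged, the called wall probes stayed called at larger limma adjusted p. These were 0.0011 for *CSLA01*, 2.05e-05 for the *EXLA2* and *EXLB1* probe and 0.0045 for the CSLC probe listing 3 genes. They were 0.0039 for probe 2884, 0.0259 for probe 2019, 0.0046 for probe 3160 and 3.62e-07 for probe 1478.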
